A study of Bos taurus with 60 samples.

Results

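Lipoprotein lipase (LPL), the fatty acid translocase CD36 and xanthine dehydrogenase (XDH) are 3 genes of mammary fat secretion, and their expression was followed through the dry period in 60 mammary biopsies. LPL hydrolyses the triglycerides of circulating lipoproteins, and CD36 is a membrane receptor that takes up the long-chain fatty acids this releases. XDH, the enzyme that oxidises purines, is also a structural protein of the coat under which milk fat droplets leave the secretory cell, where it sits with butyrophilin (BTN1A1) and the droplet protein perilipin 2 (PLIN2). In the ruminant udder part of the milk fat is built from fatty acids taken up from blood in this way and part is made in the gland, and after milk removal stops at dry-off the gland involutes. Endothelial cells, adipocytes and macrophages also carry CD36, and adipocytes make LPL.

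The 3 members were chosen by name, out of 25223 loci in the count tables, and each symbol was paired with its locus through the supplementary tables of the study. LPL is locus XLOC_022745 with ENSEMBL identifier ENSBTAG00000012855, CD36 is XLOC_018716 with ENSBTAG00000017866, and XDH is XLOC_002766 with ENSBTAG00000012519. None of the 3 loci joins several ENSEMBL genes. All 3 passed the filter on low counts, which left 14714 loci. The rows used here came from its tables of D3 vs. D-3 (1998 rows), D7 vs. D3 (1998 rows) and D14 vs. D7 (80 rows), which hold the study's own tests of these libraries. Which genes carry a symbol therefore depends on those contrasts, and their results there are no independent evidence of direction.

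Multiparous Holstein cows were dried off ahead of calving in summer and kept for the dry period under heat stress (HT, 6 cows in a free-stall pen with shade only) or cooling (CL, 6 cows in a pen with shade, fans and soakers). Every cow was biopsied 3 d before dry-off in late lactation (D-3) and 3, 7, 14 and 25 d after it (D3, D7, D14 and D25). The treatments began at dry-off, so D-3 precedes them in both groups, and the groups were kept in separate pens, so pen and cooling cannot be told apart. Biopsies were trimmed of visible fat and no cells were sorted, so in this bulk tissue fewer cells of a type and less RNA per cell cannot be told apart.

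Libraries held between 20525083 and 26183990 counts, with a median of 22637562. Levels are given in CPM, the counts of a locus scaled to a common library total, after correction of that total by the trimmed mean of M-values (TMM), and a level is compared between samples, never between genes, since transcript lengths were not used. Milk protein transcripts (CSN1S1, CSN2 and LALBA together) took between 0.19% and 49.8% of the counts of a library at D-3 and at most 14.5% on any later day. In 16 of 60 libraries the deviation from the group mean was most like that of another cow. Both late libraries of cow 8513 and both of cow 8660 (HT, D14 and D25) were most like the other cow of this pair. The D14 library of cow 7965 (CL) stood apart, with a mean correlation of 0.821 with all other libraries. Results are therefore given with and without these libraries where a value or a call moved.

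LPL had its highest level before dry-off. At D-3 it ranged from 36.8 to 6826 CPM over 12 cows with a median of 179 CPM, and the mean was 1716 ± 2418 CPM (SD, n = 12). At D3 the 12 cows ranged from 26.7 to 84.7 CPM around a median of 59.1 CPM. The distributions were therefore far apart in some cows and overlapping in others, and the level at D3 was lower than at D-3 in 11 of 12 cows. The exception was the HT cow 8513, with 55.3 CPM at D-3 and 75.2 CPM at D3. On the later days the median LPL level was 75.7 CPM at D7, 63.3 CPM at D14 and 52.7 CPM at D25. The highest cow reached 658 CPM at D7, 217 CPM at D14 and 114 CPM at D25, so the wide spread of D-3 was not seen again at D25. Together the 3 members took 0.111% to 0.917% of the counts of a library at D-3 and 0.0918% to 0.36% at D3.

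CD36 followed the same order of days at its start but kept more of its level. It ranged from 255 to 8907 CPM at D-3 with a median of 729 CPM and a mean of 3111 ± 3392 CPM (SD, n = 12). At D3 the range was 85.8 to 1111 CPM with a median of 326 CPM, and 11 of 12 cows were below their own D-3 level. The exception was the CL cow 8686, with 357 CPM at D-3 and 674 CPM at D3. Medians of the later days were 482 CPM at D7, 373 CPM at D14 and 419 CPM at D25, each with overlapping ranges.

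XDH showed the smallest change of the 3 members. It ranged from 583 to 16240 CPM at D-3 with a median of 2394 CPM and a mean of 6297 ± 6322 CPM (SD, n = 12). At D3 it ranged from 648 to 3482 CPM with a median of 953 CPM, and 9 of 12 cows were below their own D-3 level. The CL cows 8060, 8603 and 8686 were the exceptions, each with less than 802 CPM at D-3. Median levels were 1564 CPM at D7, 1117 CPM at D14 and 1032 CPM at D25, and in 10 of 12 cows the level at D7 was above that at D3.

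**Figure D1:**
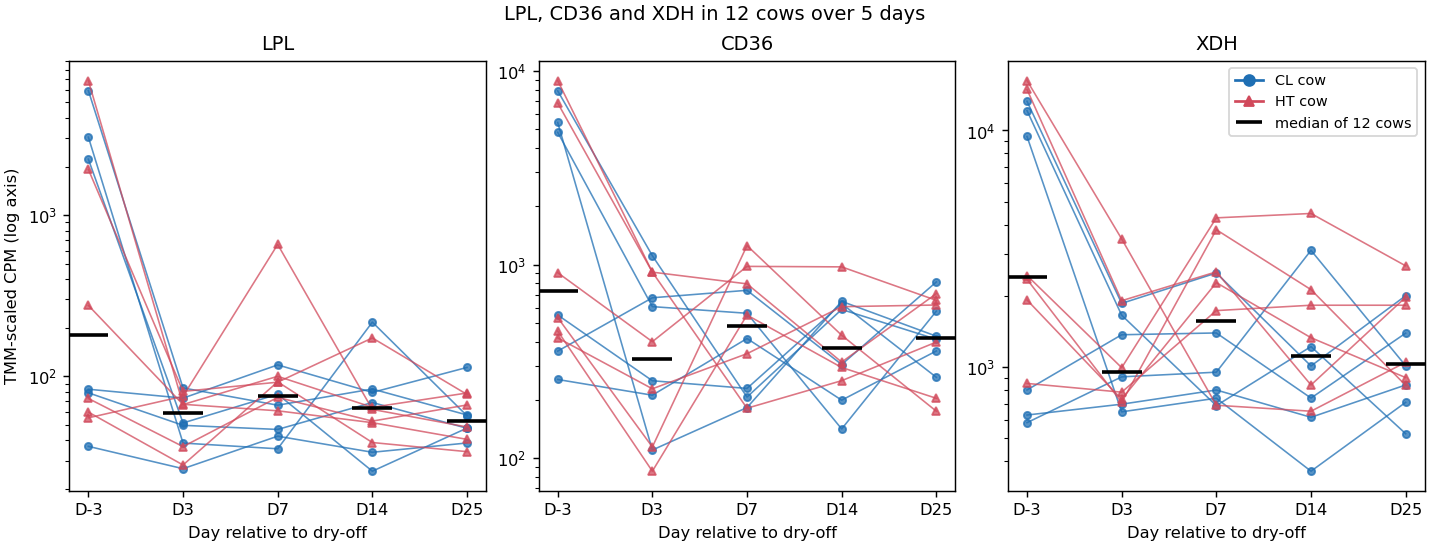
TMM-scaled CPM (log axis) of LPL, CD36 and XDH at each day relative to dry-off, with 1 line per cow (circles CL, triangles HT) and the median of 12 cows as a black bar. A set of 5 cows starts at 1920 CPM or more for LPL at D-3, and all cows but 1 lie at or below 217 CPM on every dry day.

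At D-3 the same 5 cows were the highest for all 3 genes, although not in the same order. For LPL the highest levels were those of HT cow 8713 with 6826 CPM, CL cow 8647 with 5921 CPM, CL cow 7965 with 3044 CPM, CL cow 8564 with 2222 CPM and HT cow 8541 with 1920 CPM. The next cow was the HT cow 8668 with 275 CPM, and the lowest was the CL cow 8060 with 36.8 CPM. The 5 highest cows for LPL also held the 5 highest levels of CD36, at 8907, 7888, 5416, 4819 and 6826 CPM in the order named, with the next at 908 CPM. For XDH they held 14900, 12130, 9430, 13280 and 16240 CPM, with the next at 2439 CPM. All cows had been biopsied on the same day relative to dry-off and before treatment, and both treatments held high and low cows. Cows were ordered here by the measured level, so no test was made between high and low cows.

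The same 5 cows had the 5 highest levels of several genes of milk fat and milk protein at D-3. This held for BTN1A1, which ranged over the 12 cows from 43.9 to 3507 CPM, and for FABP3, which carries fatty acids inside the cell and ranged from 1.96 to 4187 CPM. It held for the membrane mucin MUC15 (3.25 to 3962 CPM), the droplet GTPase RAB18 (133 to 1487 CPM) and the casein CSN1S1 (743 to 790500 CPM). These levels are TMM-scaled, so they are not shares of the counts of a library. PLIN2 had 4 of the 5 among its 5 highest cows. ACSL5, which activates fatty acids with coenzyme A, had none of them there, and it ranged from 21.1 to 92.9 CPM.

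Milk protein transcripts took 49.8% of the counts in cow 8713, 44.4% in 8647, 43.1% in 8541, 40.9% in 7965 and 40.2% in 8564, and the next was cow 8668 with 8.03%. TMM factors were 0.3 to 0.419 in the libraries of these 5 cows and 1.02 to 1.21 in the others, so TMM raises every level in the former relative to plain CPM. Without TMM the LPL levels were 2044 CPM in cow 8713, 1978 in 8647, 1275 in 7965, 871 in 8564, 696 in 8541 and 284 in 8668, so the same 5 cows were the highest. The part of the milk protein transcripts in the levels of the 3 members was not tested.

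**Figure D2:**
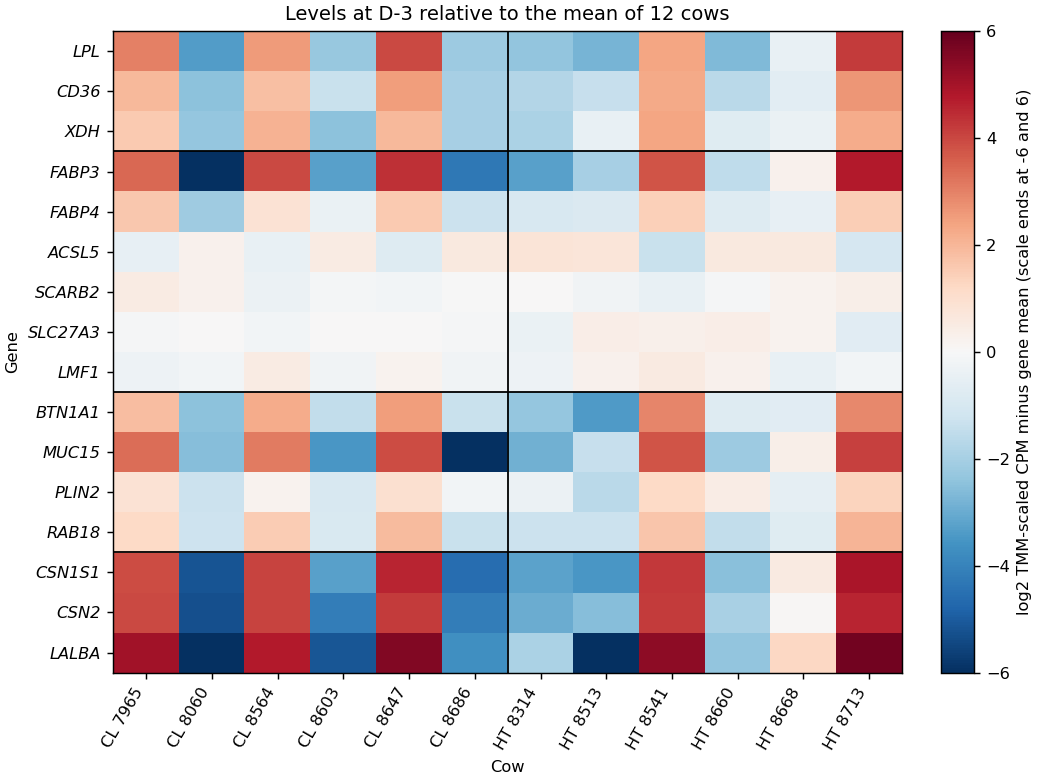
Colour gives log2 TMM-scaled CPM at D-3 minus the mean of the gene over 12 cows, for genes (rows) in cows (columns, CL left and HT right). Cows 7965, 8564, 8647, 8541 and 8713 are red for LPL, CD36 and XDH and for CSN1S1, CSN2 and LALBA, and the colours of LMF1, SCARB2 and SLC27A3 are near white in all cows.

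The comparison of D3 with D-3 asks how gene expression changes at the start of involution. LPL fell by 4.92 on the log2 scale (SE 0.67, FDR = 1.79e-06), to 30.3-fold less, CD36 fell by 2.73 (SE 0.51, FDR = 1.67e-04), and XDH fell by 2.26 (SE 0.47, FDR = 6.31e-04) in edgeR's quasi-likelihood test, with Benjamini-Hochberg adjustment over 14714 loci. In this contrast 9.04% of all loci tested were lower at an FDR of at most 0.05. These fitted changes compare group means, to which the cows with high levels contribute most. As a description, LPL at D3 was 23.8-fold to 102-fold lower in the 5 cows with the highest LPL at D-3. In the other cows it lay between 4.12-fold lower and 1.36-fold higher. The mean within-cow difference in log2 CPM was -2.84 for LPL, with a median of -1.56 (p = 0.00146, two-sided exact sign-flip test). It was -2.07 for CD36 (p = 0.00195, lower in 11 of 12 cows) and -1.48 for XDH (p = 0.0107, lower in 9 of 12 cows) in the same exact test, whose smallest possible p is 0.000488.

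All 3 members remained below D-3 on the later days in the same model. At D25 the log2 fold change from D-3 was -4.86 for LPL (SE 0.66, FDR = 1.92e-06), -2.74 for CD36 (SE 0.51, FDR = 1.95e-04) and -2.26 for XDH (SE 0.47, FDR = 8.15e-04), where 9.16% of all loci were lower. At D14 it was -4.44 for LPL (FDR = 7e-06), -2.80 for CD36 (FDR = 1.41e-04) and -2.05 for XDH (FDR = 0.00172), where 11.3% of loci were lower. At D7 it was -3.82 for LPL (FDR = 1.74e-04), -2.54 for CD36 (FDR = 9.36e-04) and -1.76 for XDH (FDR = 0.0116), where 7.12% were lower. These 4 contrasts share the D-3 libraries and are not separate evidence. Within cows, the D25 level was below that of D-3 in 10 of 12 for LPL, 9 for CD36 and 7 for XDH. The other 5 cows had more XDH at D25. In the same order the exact sign-flip test gave p = 0.00488, 0.0166 and 0.0405. At D14 the level was lower in 11, 9 and 9 of 12 cows.

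D7 was the weakest of the 4 contrasts. Only 7 of 12 cows had less LPL at D7 than at D-3 (p = 0.0459, exact sign-flip test), 7 of 12 had less CD36 (p = 0.0498, exact) and 5 of 12 had less XDH (p = 0.125, exact). With the 24 libraries of D7 and D-3 alone in the edgeR fit, FDR was 0.0829 for LPL and CD36 and 0.0968 for XDH. Without cow 8541, 8564, 8647 or 8713, which were 4 of the 5 cows with high levels at D-3, the XDH value was -1.45, -1.64, -1.55 or -1.61 and edgeR's FDR was 0.085, 0.0526, 0.0776 or 0.0564. For XDH at D14 the exact sign-flip test over 12 cows gave p = 0.0742.

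The size of the fall depends on the scaling. With library size only, the log2 fold change of D3 vs. D-3 was -3.45 for LPL, -1.55 for CD36 and -1.15 for XDH, each still at an FDR of at most 0.0205 in edgeR, while the median of all loci was 0.35 in place of -0.01. All 3 values thus stayed below the median of all loci. At D7 the library-size values for CD36 (-1.23, FDR = 0.059) and XDH (-0.54, FDR = 0.187) no longer passed, nor did XDH at D14 (-0.78, FDR = 0.0672). Of the loci called at D3, 40.0% were higher with TMM and 92.7% with library size only. With the cow as a block, edgeR called all 12 values against D-3 for the 3 members, as it did without it.

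**Figure D3:**
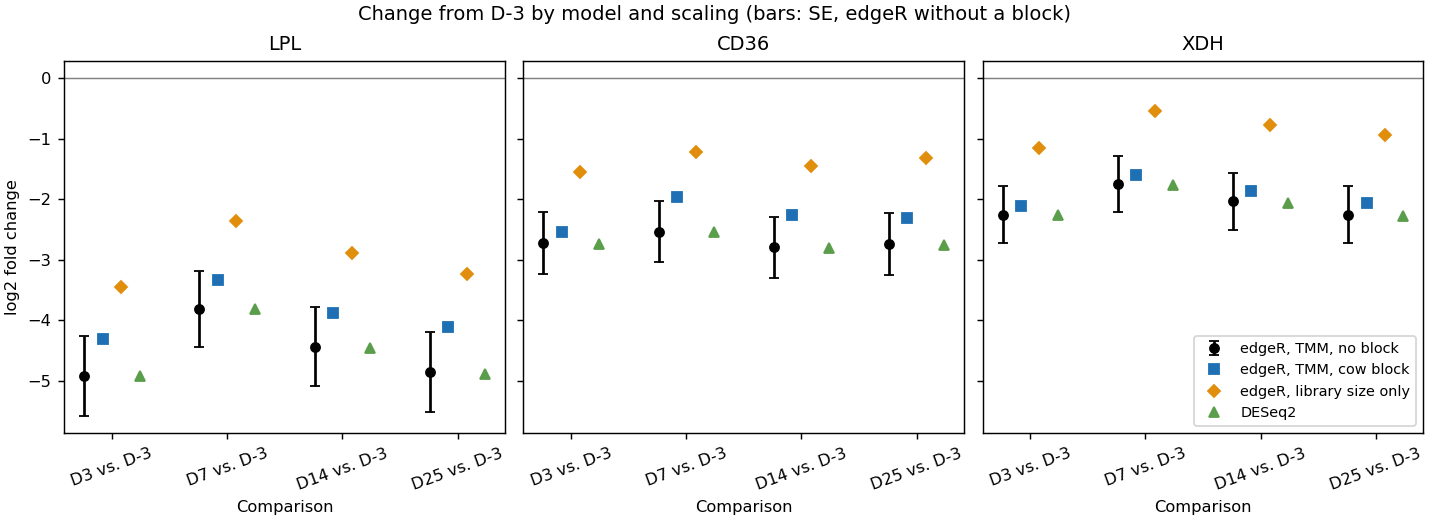
Log2 fold change of LPL, CD36 and XDH at each dry day vs. D-3, by edgeR with TMM (bars, SE), with TMM and the cow as a block, with library size only, and by DESeq2. Every point lies below 0, and the library-size values lie closest to it, at -3.45 for LPL, -1.55 for CD36 and -1.15 for XDH at D3.

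Among the 4 dry days no difference of the 3 members passed adjustment. In order of mean log2 CPM, LPL ran D-3, D7, D14, D25 and D3, CD36 ran D-3, D7, D25, D14 and D3, and XDH ran D-3, D7, D14, D25 and D3. D-3 and D7, the first neighbours, passed the test in edgeR for each gene, with the limits given above for D7 and above all for XDH, and no later neighbours in these orders passed. Of the 18 tests of the 3 members between pairs of dry days, edgeR called 0 at an FDR of at most 0.05 and found 0 with an unadjusted p under 0.05, and DESeq2 called 0 and found 1. In D7 vs. D3, 2.92% of all loci passed in either direction (430 loci, or 881 with the cow as a block), against 0% in D14 vs. D7 and 0.0612% in D25 vs. D14. In the pairs that are not consecutive, 505 loci passed in D14 vs. D3, 886 in D25 vs. D3 and 0 in D25 vs. D7.

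LPL had the largest difference between D7 and D3. Its log2 fold change was 1.11 (SE 0.57, unadjusted p = 0.0573, FDR = 0.324 in edgeR), with a higher level at D7 in 8 of 12 cows (mean within-cow difference 0.66, p = 0.0166, exact sign-flip test). CD36 differed by 0.20 (SE 0.48, FDR = 0.914) and XDH by 0.51 (SE 0.45, FDR = 0.649). The HT cow 8513 had 75.2 CPM of LPL at D3, 658 CPM at D7 and 62.3 CPM at D14. Without its D7 library, an alternative chosen after seeing the data, the LPL value was 0.37 (FDR = 0.807 in edgeR). At D25 LPL was lower than at D7 in 10 of 12 cows (mean within-cow difference -0.58, p = 0.0449, exact sign-flip test), while edgeR gave -1.05 (SE 0.57, FDR = 1). The sign-flip p-values of the dry-day pairs are not adjusted, and for the 2 members CD36 and XDH none of them was under 0.05. From D7 to D14 LPL had -0.62 (SE 0.57, FDR = 1), CD36 -0.26 and XDH -0.29, and from D14 to D25 the values were -0.43, 0.06 and -0.22.

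A few single libraries held high LPL levels on dry days, and their other genes differed. The D7 library of cow 8513 had 14.5% of its counts on the milk protein genes, the highest share of any dry-day library. It also had the highest dry-day levels of CD36, at 1253 CPM, and of FABP3, at 389 CPM. The D14 library of the CL cow 7965 had 217 CPM of LPL, 646 CPM of CD36 and 450 CPM of FABP4, the fatty acid binding protein of adipocytes and endothelium. The same library had the lowest XDH level of all 60 libraries, at 364 CPM, and 0.288 CPM of BTN1A1 and 0.048 CPM of MUC15. Its level of ADIPOQ, the adipocyte hormone adiponectin, was 9.94 CPM, place 41 of 60. Milk protein genes took 0.0103% of its counts, the lowest share at D14. Among the CL libraries of D14, the luminal keratin KRT19 was as low as 3.36 CPM, with a median of 420 CPM. The cow of that lowest level is not given here, and the part of epithelial cells was not tested.

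The D14 library of the HT cow 8541 had 173 CPM of LPL with 252 CPM of CD36 and 652 CPM of XDH. Its ADIPOQ level of 313 CPM was the highest of all libraries, and the next, in the D7 library of cow 8513, was 41.7 CPM. FABP4 stood at 256 CPM there, while BTN1A1 was at 1.69 CPM. The 2 adipocyte genes that could be paired with a locus, ADIPOQ and the lipase PNPLA2, summed to at most 101 CPM in any library of D7. In the D14 library of cow 8541 PNPLA2 was at 59.8 CPM, place 9 of 60. Without this D14 library, chosen after seeing the data, LPL in D14 vs. D-3 was -4.60 (FDR = 1.6e-05, edgeR) in place of -4.44. The part of adipocytes and of milk secreting cells in these levels was not tested.

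**Figure D4:**
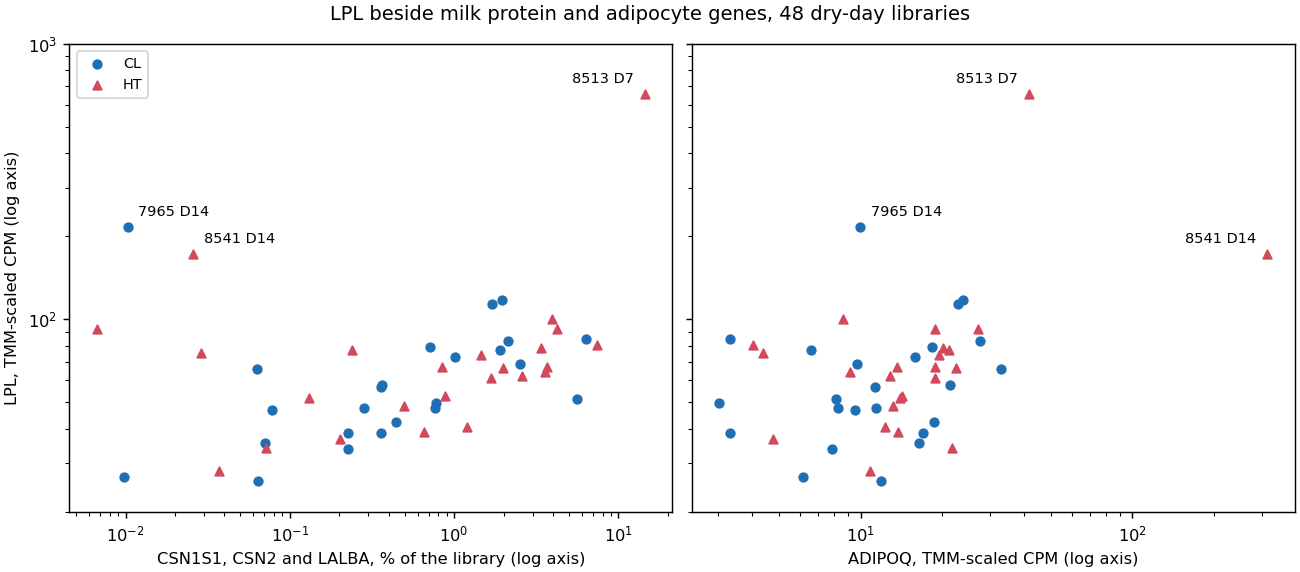
LPL level (TMM-scaled CPM, log axis) in 48 dry-day libraries against the share of counts on CSN1S1, CSN2 and LALBA (left) and against the ADIPOQ level (right), circles CL and triangles HT. The D7 library of cow 8513 lies at 14.5% milk protein, and the D14 libraries of cows 7965 and 8541 lie at low shares, the latter at 313 CPM of ADIPOQ.

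Genes that work beside the 3 members were taken from lists fixed by function, of which 26 of 111 genes could be paired with a locus, so a count covers only these. Of 10 listed proteins of the fat globule and droplet coat, 4 were paired, and all 4 fell at D3 vs. D-3 with a median log2 fold change of -2.79, beside -0.01 for all loci. They were BTN1A1 (-4.29, FDR = 0.00129), MUC15 (-3.74, FDR = 0.00578), PLIN2 (-1.84, FDR = 0.00138) and RAB18 (-1.69, FDR = 7.79e-05) in edgeR. All 4 also passed with library size only, at -3.05, -2.50, -1.08 and -0.62. At D7 2 of the 4 were called lower, at D14 4 and at D25 3, beside the 7.12%, 11.3% and 9.16% of all loci given above. PLIN2 had -0.93 at D25 (FDR = 0.117). With library size only, RAB18 alone was called at D7, where MUC15 had an FDR of 0.0602. At D14 PLIN2 (FDR = 0.264) and at D25 PLIN2 (FDR = 0.922) and BTN1A1 (FDR = 0.0769) did not pass with library size only. The lists were drawn up with earlier results of these libraries known, and which of their genes carry a symbol depends on the study's own tests of these libraries.

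Of the listed receptors and fatty acid carriers 5 are described, of which 2 fell, 1 rose and 2 did not pass at D3. Of all 14714 loci tested, 1330 were lower and 887 higher in this contrast. The listed genes could be paired only through rows of the study's own tests, so these shares are no background for them. FABP3 fell by 5.33 on the log2 scale (SE 0.93, FDR = 6.75e-05, edgeR), more than any of the 3 members. FABP4 fell by 1.71 (FDR = 0.013), and with library size only its value was -0.81 (FDR = 0.139). ACSL5 rose by 0.65 (FDR = 0.00499), and by 0.79 with library size only (FDR = 0.0422). The lysosomal receptor SCARB2 (-0.16) and the fatty acid transporter SLC27A3 (-0.19) did not pass, and both values turned positive with library size only, at 0.22 and 0.16.

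LMF1, which folds LPL into its active form, was the only 1 of 10 listed partners of LPL that could be paired. Over the 12 cows of D-3 its lowest level was 24.8 CPM and its highest 48.5 CPM, and its log2 fold change at D3 was -0.02 (SE 0.14, FDR = 0.95, edgeR), or 0.38 (FDR = 0.12) with library size only. None of 10 listed genes of purine oxidation and the molybdenum cofactor could be paired, so no enzyme around XDH is described. Among markers of other cells, the endothelial genes KDR (-0.95, FDR = 0.0023) and EMCN (-0.49, FDR = 0.0179) were lower at D3, but KDR had -0.06 (FDR = 0.767) and EMCN an FDR of 0.985 with library size only. Of 4 paired myoepithelial genes 2 were higher, KRT5 (1.01, FDR = 0.019) and ACTA2 (0.81, FDR = 0.0351), while KRT17 (0.82, FDR = 0.0579) and MYH11 (0.22, FDR = 0.576) did not pass. Of 2 skeletal muscle myosins MYH2 was higher (2.95, FDR = 0.00913) and MYH7 had -0.29 (FDR = 0.66). Beside these counts, 887 of all 14714 loci were higher at D3 vs. D-3. The listed genes could be paired only through rows of the study's own tests, so that share is no background for them. The luminal keratin KRT19 had 0.52 (FDR = 0.333). Of the 2 paired adipocyte genes ADIPOQ had -0.84 (FDR = 0.214) and PNPLA2 0.21 (FDR = 0.564). With library size only ADIPOQ had -0.54 (FDR = 0.377) and PNPLA2 0.67 (FDR = 0.0192). The macrophage gene AIF1 had 0.27 (FDR = 0.389). The part of these cells in the levels of LPL and CD36 was not tested.

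Across libraries the 3 members moved together, as a description over 60 libraries from 12 cows that share the spread of D-3. Pearson's r of log2 CPM was 0.860 for LPL with CD36, 0.874 for CD36 with XDH and 0.754 for LPL with XDH. Spearman's rho was 0.679, 0.779 and 0.455 in the same order. Over the 48 dry-day libraries r was 0.553, 0.718 and 0.293. The levels of LPL and XDH were thus less alike after dry-off than over all days.

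Among 2870 loci with a symbol, those most like LPL over 60 libraries were ZCCHC17 (r = 0.919), RAB18 (0.912), the thyroid hormone receptor THRB (0.905), BTBD3 (0.901) and the mitochondrial pyruvate carrier MPC2 (0.897). Their r with LPL over the 48 dry-day libraries was between 0.435 and 0.538. Most like CD36 were TSPAN13 (0.943), the sugar nucleotide enzyme UGP2 (0.942), the elongation factor ELL2 (0.936), ARL15 (0.936) and ABCG2 (0.928), a transporter that exports compounds into milk. Most like XDH were the glutamine transporter SLC38A3 (0.949), the cytokine receptor chain CSF2RB (0.945), FABP3 (0.934), TMEM64 (0.931) and B4GALT1 (0.926), the galactosyltransferase of lactose synthesis. For CD36 and XDH these values were between 0.807 and 0.896 over the dry days. The dry-day libraries are among the 60 used to pick these genes, so their values are no separate support. At D-3 alone the genes most like LPL were PKD2L1, TSPAN13, SNTB1, ARL15 and ZCCHC17, those most like CD36 were ZCCHC17, TSPAN13, TARS, FAM134B and RASEF, and those most like XDH were ATP2C2, SLC41A1, SLC38A3, TRIM46 and HSTN. Over the 48 dry-day libraries the r of these genes with LPL ranged from -0.013 to 0.525. With CD36 it ranged from 0.461 to 0.874, and with XDH from 0.621 to 0.88.

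HT and CL cows were compared at each day to ask whether heat stress during the dry period changes the expression of these genes. At D-3, before the treatments, LPL ranged from 36.8 to 5921 CPM in CL cows with a median of 1153 CPM and from 55.3 to 6826 CPM in HT cows with a median of 174 CPM. The ranges overlapped almost wholly, and the log2 fold change of HT vs. CL was -0.31 (SE 1.40, FDR = 1, edgeR). It was -0.09 for CD36 (SE 1.03) and 0.08 for XDH (SE 0.97). Of the 12 tests of the 3 members at the 4 dry days, edgeR called 0 and found 2 with an unadjusted p under 0.05, and DESeq2 called 0 and found 1. Of all loci, 0% passed at any of the 5 days in edgeR, and DESeq2 called 3 loci at D7, 1 at D25 and 0 on the other days.

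The largest differences were at D7, and all 3 were higher in HT cows. LPL ranged from 35.5 to 118 CPM in CL cows with a median of 56.5 CPM and from 61.1 to 658 CPM in HT cows with a median of 92.2 CPM. The log2 fold change was 1.49 (SE 0.59, unadjusted p = 0.0252, FDR = 0.959, edgeR), and the two-sided exact permutation test over cows, whose smallest possible p is 0.00216, gave p = 0.0758. Without cow 8513 the value was 0.39 (unadjusted p = 0.19, FDR = 1, edgeR), and without 8513 and 8660 it was 0.35. The other 5 HT cows lay within the range of the CL cows.

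XDH at D7 ranged from 688 to 2500 CPM in CL cows with a median of 877 CPM and from 691 to 4274 CPM in HT cows with a median of 2402 CPM. Its log2 fold change was 1.12 (SE 0.43, unadjusted p = 0.0219, FDR = 0.959, edgeR), and the exact permutation test gave p = 0.0606. The HT cows 8668, 8513, 8713 and 8660 had 4274, 3808, 2528 and 2276 CPM, and among CL cows the highest was 8564 with 2500 CPM and the next 8686 with 1395 CPM. The HT cow 8541 had 691 CPM, near the lowest CL cow. Without cows 8513 and 8660 the value was 0.97 (FDR = 1, edgeR). CD36 had 0.82 (SE 0.46, FDR = 0.959), with 183 to 736 CPM in CL cows and 181 to 1253 CPM in HT cows, and an exact permutation p of 0.195. In this contrast 2.62% of all loci were higher in HT cows at an unadjusted p under 0.05, and none of the 3 members passed adjustment.

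Milk protein genes differed in the same direction at D7. CSN1S1, CSN2 and LALBA took 0.0628% to 1.96% of the counts in CL cows with a median of 0.259%, and 0.00669% to 14.5% in HT cows with a median of 2.79%. Their log2 fold changes of HT vs. CL were 2.73, 2.73 and 3.51, none of which passed (FDR = 0.959 for each, edgeR). Among the globule and uptake genes FABP3 had 2.53 (SE 0.81, unadjusted p = 0.00802, FDR = 0.959), and BTN1A1 1.13, MUC15 1.98 and PLIN2 0.35 did not pass either. These are not the whole lists. The median was 0.16 over the 6 paired receptors and fatty acid carriers and 0.74 over the 4 paired globule genes. It was -0.003 over all loci, and 0 genes of either list were called. The part of the milk protein transcripts in the values of LPL, CD36 and XDH at D7 was not tested.

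On the other dry days the ranges of the treatments overlapped for each gene, as they did at D7. At D3 the log2 fold change of HT vs. CL was 0.13 for LPL (SE 0.30), -0.16 for CD36 (SE 0.64) and 0.26 for XDH (SE 0.42). At D14 it was -0.19 for LPL (SE 0.50), 0.19 for CD36 (SE 0.43) and 0.67 for XDH (SE 0.55). At D25 it was -0.07 for LPL (SE 0.27), -0.05 for CD36 (SE 0.36) and 0.52 for XDH (SE 0.36), all at an FDR of at least 0.997 in edgeR. XDH was thus above 0 on each dry day without passing on any, and it stayed above 0 there without cows 8513 and 8660, but was -0.20 at D3 without cow 8541.

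**Figure D5:**
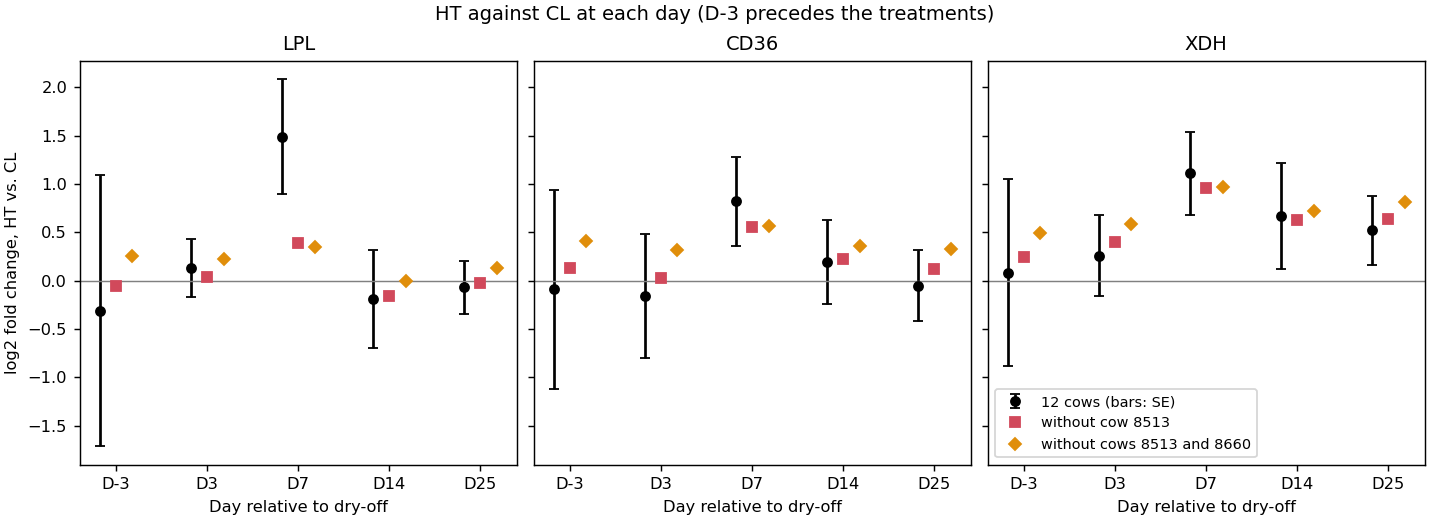
Log2 fold change of HT vs. CL for LPL, CD36 and XDH at each day (12 cows, bars SE), and without cow 8513 or without cows 8513 and 8660. At D7 LPL moves from 1.49 to 0.39 when cow 8513 is left out, while XDH moves from 1.12 to 0.96.

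Whether the change from D-3 differed between the treatments was tested by the interaction of treatment and time. Tested together, the terms of the dry days had an FDR of 1 for LPL, CD36 and XDH in edgeR. Of all loci, 0% passed, and 85 had an unadjusted p under 0.05. The largest single term was that of LPL at D7, where the change from D-3 was 1.79 higher in HT than in CL cows on the log2 scale with an SE of 1.15. These standard errors are large beside the differences, so differences of this size could not be resolved with 6 cows per treatment.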

How the data were processed

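Poly(A) RNA of 60 mammary biopsies was sequenced by the authors as single-ended reads on a NextSeq 500. They trimmed reads with Trim Galore 0.4.1, mapped them with Tophat 2.0.13 (bosTau7 in the methods, UMD3.1 in the submitters' processing notes), merged Cufflinks 2.2.1 models with ENSEMBL, and ran htseq-count on reads with a single mapping position. Per locus, the authors deposited raw whole-number counts. Whether counting used strand is not given in the sources used here.

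Here counts were scaled by TMM and tested in edgeR 4.0.16 (R 4.3.3) by the quasi-likelihood F-test, keeping loci that reached 1 CPM in 6 or more libraries. Days were compared in 1 fit of all libraries, HT and CL in the 12 libraries of a day, with Benjamini-Hochberg adjustment over all 14714 loci and an FDR of at most 0.05. Log2 CPM used a prior count of 2. Fitted SEs come from the F statistic. Exact sign-flip tests took 4096 sign changes and permutation tests every choice of 6 of 12 cows, both two-sided. Alternatives included DESeq2 1.42.0, other scalings and filters, the cow as a block and cows left out. The days come from the same cows, and deviations of libraries of the same cow had a mean correlation of 0.293 (120 pairs), against -0.025 between cows. The scripts were tested on simulated data.

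Symbols came only from the rows of the supplementary tables used here, which name 2899 loci. The genes named are the 3 members, up to 4 genes per list with the largest change at D3 vs. D-3, other listed genes where a result touches them, and the 5 genes most like each member. Members, lists and tests were chosen with earlier results of these data known. Of the paired listed genes, 1 is not reported here. Sequences and coordinates are not used here. The authors' fold changes and p-values were not used. Counting error is small at these depths, and the spread between cows limits the precision.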

Additional observations from a re-analysis of the deposited data

Results flagged for a closer look

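In 6 of 30 groups of 6 cows, 1 cow lay far from the others of its group by Dixon's test at the 95% level. Chance gives such a result in about 1 of 20 groups where values are normally distributed, which these skewed CPM values are not. On log2 CPM 3 of the 6 were past the critical value, namely LPL in HT cows at D7 and D14 and in CL cows at D25. LPL in HT cows at D7 had 657.6 CPM in cow 8513, while the other 5 cows lay within the range of the CL cows of D7. LPL in HT cows at D14 had 173 CPM in cow 8541, with the next at 64.3 CPM. LPL in CL cows at D14 had 216.8 CPM in cow 7965, with the next at 83.4 CPM. LPL in CL cows at D25 had 113.5 CPM in cow 8686, with the next at 57.6 CPM. LPL in HT cows at D-3 had 6826 CPM in cow 8713, with the next at 1920 CPM. XDH in CL cows at D14 had 3116 CPM in cow 8603, with the next at 1222 CPM. CD36 had no such cow in any of its groups.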

How the results depend on the processing

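The fall from D-3 kept its direction in every alternative run. At D3 and D25 it passed in edgeR or DESeq2 with FDR of at most 0.0328 in all alternatives, each cow left out included. No alternative left out more than a single cow of the 5 with high levels at D-3, so none shows the fall without these cows. With library size only, CD36 at D7 had -1.23, XDH at D7 -0.54 and XDH at D14 -0.78. With the 24 libraries of the 2 days alone, LPL at D7 had -3.81, CD36 -2.53 and XDH -1.75. With each cow left out, XDH at D7 ranged from -2.01 to -1.45 and lost its call without cow 8541, 8564, 8647 or 8713. With the cow as a replicate block, no call of a member was lost or gained, and LPL at D3 was -4.32, while all loci called went from 430 to 881 in D7 vs. D3, from 1245 to 1950 in D7 vs. D-3 and from 1930 to 3003 in D25 vs. D-3. With library size only the latter 2 counts were 23 and 6038. All other changes were changes of sign, in values that passed in no run. Without cows 8513 and 8660, CD36 in D7 vs. D3 was -0.23, LPL in D14 vs. D7 0.26 and CD36 there 0.01. In HT vs. CL, leaving out this pair gave LPL 0.26 and CD36 0.41 at D-3, CD36 0.32 at D3, LPL 0.00 at D14, and LPL 0.13 and CD36 0.33 at D25. Without the D14 library of cow 7965, LPL in HT vs. CL at D14 was 0.33. Without the D7 library of cow 8513, chosen after seeing the data, LPL in D14 vs. D7 was 0.11. With the cow as a block, CD36 in D25 vs. D14 was -0.05, or -0.08 with the late labels of cows 8513 and 8660 exchanged. Over the cows left out in turn, D7 vs. D3 ranged from -0.09 to 0.45 for CD36, D14 vs. D7 from -0.96 to 0.14 for LPL and D25 vs. D14 from -0.08 to 0.17 for CD36. HT vs. CL at D-3 ranged from -1.98 to 0.49 for LPL, from -0.80 to 0.40 for CD36 and from -0.46 to 0.46 for XDH. At D3 it ranged from -0.01 to 0.30 for LPL, from -0.51 to 0.26 for CD36 and from -0.20 to 0.41 for XDH. At D14 it ranged from -0.65 to 0.33 for LPL and from -0.14 to 0.35 for CD36, and at D25 from -0.18 to 0.21 for LPL and from -0.22 to 0.17 for CD36. The cause of these shifts was not tested. The spread between cows, above all at D-3, and the 6 cows per treatment limit what can be resolved.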
